A study of Mus musculus with 2 samples.

Results

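The core and regulatory splicing factor genes of 87 yolk sac cells were followed here: the 55 genes, of 23154 in the count tables, whose symbols begin with Srsf and a digit, Hnrnp, Snrp, Sf3a or Sf3b and a digit, or U2af1 or U2af2. They were chosen by name, though with earlier results of these data known, and comprised 11 Srsf, 20 Hnrnp, 12 Snrp, 9 Sf3 and 3 U2af genes. The cells were PK44 cells of the E10.0 mouse yolk sac, sorted as CD41-CD43-CD45-CD31+CD201+Kit+CD44+ from embryos on the C57BL/6 background, a phenotype used to capture hemogenic endothelial cells. The 2 libraries were made by modified STRT-seq, a well-based single-cell method that tags each transcript with a unique molecular identifier (UMI), and both held this single condition. Replicate 1 had 43 cells and replicate 2 had 44 cells. The labels do not say whether the libraries came from separate embryos, so p-values over them measure only the spread between these 2 libraries, which may be technical.

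Splicing removes introns from pre-mRNA. The U1, U2, U4 and U5 small nuclear ribonucleoproteins (snRNPs) carry a ring of Sm proteins, and the U2AF dimer recognizes the 3' splice site and recruits the U2 snRNP, whose SF3A and SF3B subcomplexes hold the branch point. SR proteins (Srsf genes) mostly promote the use of exons they bind, whereas heterogeneous nuclear ribonucleoproteins (hnRNPs) coat nascent RNA and often oppose that use. Most are made in nearly all cell types, and their balance shapes alternative splicing.

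Counts per cell ranged from 13218 to 702028 in replicate 1 and from 51620 up to 956593 in replicate 2, with totals of 8932527 and 12706360. No barcode was shared between the libraries. All 8 endothelial markers were detected, among them Cdh5 in 87 cells, and so were all 6 hemogenic and hematopoietic markers, among them Runx1 in 68 cells. Of the genes of positive sort markers, Cd44 was detected in 85 cells, Pecam1 in 86, Procr in 80 and Kit in 66. Of those of negative sort markers, Itga2b, which encodes CD41, was detected in 56 cells (65.0 and 37.8 counts per 1000000, CPM, in replicates 1 and 2), Spn, which encodes CD43, in 9 and Ptprc, which encodes CD45, in 3. Among markers of other cells, Hba-a1 of erythroid cells, C1qa, C1qb and C1qc of macrophages, and Apob, Rbp4 and Amn of visceral endoderm were at 0. Other genes of these lists were detected, namely Mrc1 in 71 cells (125.2 and 162.3 CPM), Lyz2 in 34 and Tyrobp in 29 of the macrophage list, Trf in 54 (58.1 and 61.1 CPM) of the visceral endoderm list and Hbb-y in 13 of the erythroid list. In all, 3 cells, 2 in replicate 1 and 1 in replicate 2, carried at least 100 counts each of Col1a1, Col1a2, Col3a1 and Lum, genes of mesenchymal cells. At any count, Col1a2 was detected in 74 cells, Col3a1 in 61, Col1a1 in 56 and Lum in 55, so leaving out the 3 cells does not remove these transcripts. Median fold changes, counts of genes higher in both libraries and the correlation with Runx1 are given with and without the 3 cells. Shares and sums of the classes are given with them only.

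Levels are given as CPM of the counts summed over a library. Each transcript carries a single tag whatever its length, so levels of different genes were set side by side without division by length. The deepest cell of replicate 2 held 956593 counts, close to the raw read number above which the authors excluded cells. How far duplicate reads had been collapsed was not tested, so levels are read as counts and not as transcript numbers. Of the 55 genes, 52 had a count and 28 had one in at least 80 of 87 cells, which was 53.8% of those with a count, against 5.62% of the 13206 genes with a count in these cells. All 87 cells had a count of 8 of them. The 52 genes had a median of 243.6 CPM, and all genes with a count had a median of 22.9 CPM. Together the splicing factor genes took 1.497% and 1.406% of all counts in replicates 1 and 2. After each cell had been thinned to 20000 counts, their share per cell ran from 0.615% to 2.325% with a median of 1.435% in replicate 1, and from 0.840% to 1.965% with a median of 1.375% in replicate 2.

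**Figure D1:**
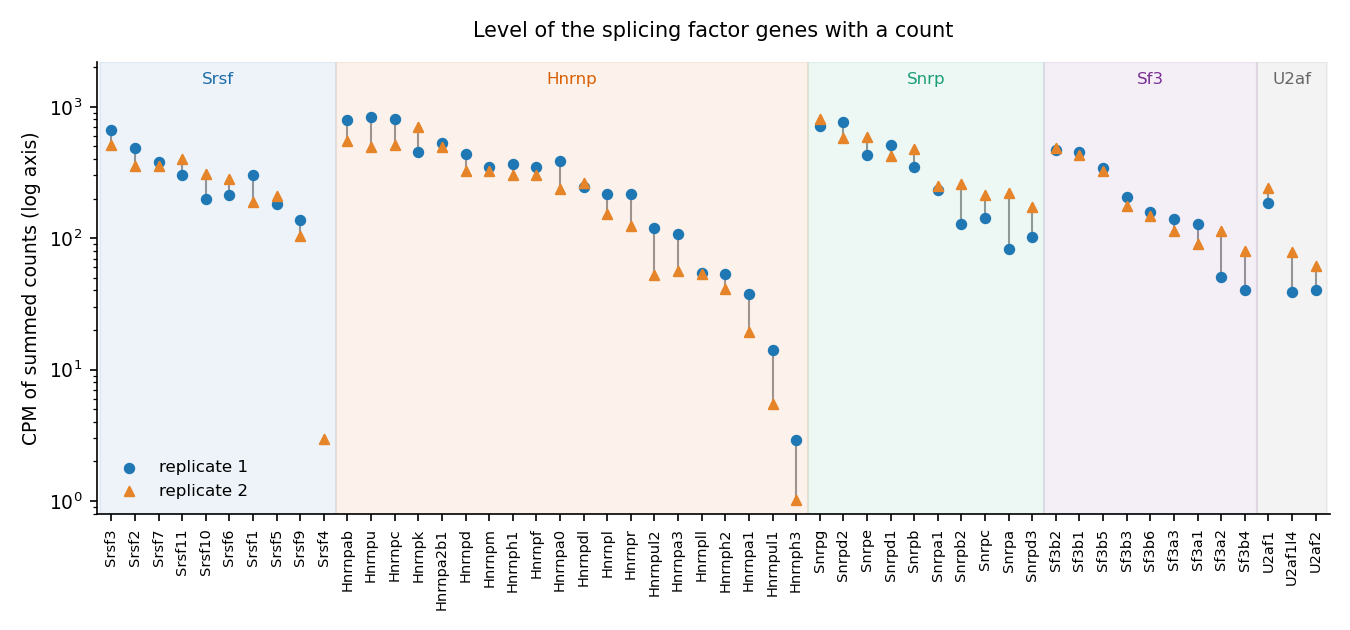
Level of each of the 52 splicing factor genes with a count, as CPM of the counts summed over a library on a log axis. Circles are replicate 1, triangles are replicate 2, a grey line joins the 2 libraries, and genes are grouped by family and ordered by mean. Of the 52 genes, 38 lie at 100 CPM or more in both libraries, whereas Hnrnpa1, Hnrnpul1, Hnrnph3 and Srsf4 lie below 50, and Srsf4 has no point in replicate 1, where it had no count.

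Among the SR proteins, Srsf3 was the most abundant, with 660 and 509 CPM in replicates 1 and 2, and was detected in 86 cells. Srsf2 followed with 484 and 353 CPM, and Srsf7, which like Srsf3 also acts in mRNA export, with 380 and 356 CPM. The Srsf genes summed to 2862 and 2709 CPM. Srsf4 and Srsf12 stood apart from the others. Srsf12 had no count, and Srsf4 had 38 counts in 3 cells of replicate 2 and none in replicate 1 (3.45% of cells, exact 95% interval from 0.717% to 9.75%, counting error only). The remaining Srsf genes were detected in at least 78 cells each.

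The hnRNP genes were the largest share of the set, with 6377 and 5018 CPM. Hnrnpab, which encodes an RNA-binding protein of the A/B type, reached 792 and 552 CPM. Hnrnpu, whose product also binds nuclear matrix and chromatin, reached 837 and 498 CPM, and Hnrnpc, which binds uridine tracts, 809 and 511 CPM. All 3 were higher in replicate 1, whereas Hnrnpk, a poly(C)-binding protein gene, was higher in replicate 2 (451 and 703 CPM). Hnrnpa1, which encodes a well-studied antagonist of SR proteins, was low, with 37.7 and 19.3 CPM and a count in 65 cells. Hnrnpul1 had 14.1 and 5.43 CPM in 25 cells, and Hnrnph3 had 26 counts in replicate 1 and 13 in replicate 2, all in 3 cells (3.45% of cells, exact 95% interval from 0.717% to 9.75%).

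Snrpg, the gene of the small Sm protein G, was the most abundant of all 55 by the mean of the 2 libraries, with 716 and 814 CPM, and was detected in every cell. Snrpd2, another gene of the Sm ring, had 772 and 582 CPM, and Snrpe had 432 and 585 CPM. The Snrp genes summed to 3469 and 3992 CPM. Snrpn, the imprinted gene of an Sm B paralog, and Snrpf, the gene of Sm protein F, had no count in any of 87 cells, which allows a share of cells with a count of up to 3.45% by the 3-count limit and 4.15% by the exact 95% interval. The other genes of the ring (Snrpb, Snrpd1, Snrpd2, Snrpd3, Snrpe and Snrpg) were detected in at least 78 cells each. In the GENCODE M21 models, 85.4% of the exonic bases of Snrpf (chr10:93583029-93589706, GRCm38) lie in exons of genes on the opposite strand, mainly Ccdc38, which itself had 26 counts. The part of this overlap in the absence of Snrpf counts was not tested.

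In the SF3 group, Sf3b2 had 468 and 483 CPM, Sf3b1, which encodes the large scaffold protein at the branch point, 456 and 430 CPM, and Sf3b5 344 and 327 CPM. The sums of the 9 genes were 1993 and 1960 CPM, the smallest relative gap between libraries of the 5 families. U2af1, the gene of the small U2AF subunit that reads the AG dinucleotide, had 187 and 242 CPM. U2af1l4 had 38.8 and 78.0 CPM, and U2af2, the gene of the large subunit that binds the polypyrimidine tract, 40.6 and 60.9 CPM. In counts the large subunit was below the small subunit in both libraries. U2af1 shares 71.6% of the 50-base words in the last 500 bases of its transcripts with other genes, and U2af1l4 shares 69.7%, so that how uniquely mapped reads split between copies leaves their levels uncertain. The same share reached at least 10% for 9 of the 55 genes, among them Hnrnpa3 (46.9%), Hnrnpf (37.3%), Snrpc (35.1%) and Snrpa (26.1%), and was 0 for Hnrnpa1. The 9 genes had a median of 152.6 CPM and the other 46 a median of 246.1 CPM. Exonic overlap with another gene covered at least 20% of 7 genes, including U2af1l4 (66.1%), Srsf2 (25.3%), Hnrnpab (29.1%) and Srsf4 (43.0%). The genes overlapping U2af1l4 are Gm49396 and Psenen, and 65.6% of its exonic bases overlap on the same strand. Psenen had 163.9 and 171.3 CPM in replicates 1 and 2. Whether the counting used strand is not given in the sources used here.

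Between libraries, replicate 1 was the higher for 31 of the 52 genes and replicate 2 for the other 21, while 6 of the 50 genes detected in at least 20 cells were more than 2-fold apart. Snrpa, a U1 snRNP gene, was among these, with 83.4 and 221.8 CPM in replicates 1 and 2. There is no second condition, so these gaps describe 2 libraries and were not tested.

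The splicing factor genes varied less over cells than most genes of like level. The variance over cells of thinned counts was divided by the mean and set against the running median of genes with a similar mean. Of 42 splicing factor genes measurable in both libraries, 24 (57.1%) lay below that median in both libraries, against 32.4% of 3277 genes. Only Snrpa1 lay above it in both, against 26.6% of all genes. Hnrnpk was the steadiest, with a ratio of variance to mean of 5.70 in replicate 1 and 2.79 in replicate 2, which was 0.78 and 1.12 log2 units below the genes of like mean. Sf3a1 lay 1.13 and 0.62 log2 units below, Srsf5 1.31 and 0.24, Hnrnpf 0.49 and 0.98, and Hnrnpl 0.51 and 0.94. At the other end, Snrpa1, a U2 snRNP gene, lay 0.56 and 0.23 log2 units above. U2af1 was 0.39 below in replicate 1 and 1.11 above in replicate 2. Hnrnpdl, Srsf11 and Sf3b5 followed with mean distances of 0.05, 0.04 and -0.01. These values rest on cells of 2 libraries that share their source, and no test was made.

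**Figure D2:**
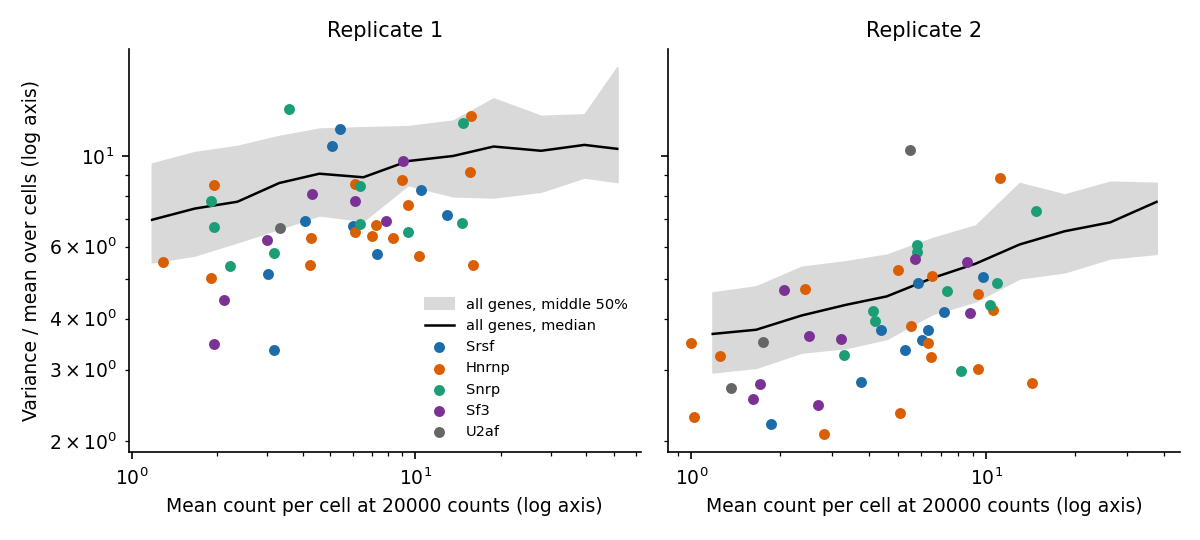
Ratio of variance to mean over cells against the mean count per cell at 20000 counts, both on log axes, for the splicing factor genes coloured by family in each library. The black line is the median over all genes with a mean in the same bin and the grey band holds their middle 50%, and most coloured points lie below the line in both libraries.

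Coordination from cell to cell was weak. Over 861 pairs of 42 genes with a mean of at least 1 thinned count, the median Spearman rho was 0.08 over 42 cells of replicate 1, and 0.05 over 44 cells of replicate 2, against 0.03 and 0.01 for pairs of all genes past the same floor. A rho above 0.3 in both libraries was found for 7 pairs (0.813% against 0.293% of all pairs). Of the 57 pairs above 0.3 in replicate 1, 12.3% were also above it in replicate 2. Srsf3 took part in the 2 highest pairs, with Hnrnpd at 0.43 and 0.48 and with Hnrnpf at 0.42 and 0.43. Snrpb and Snrpd2 of the Sm ring followed at 0.41 and 0.37, then Sf3b6 and Srsf2 at 0.42 and 0.35. Within the hnRNP family, Hnrnpa2b1 paired with Hnrnpdl at 0.32 and 0.37 and with Hnrnpk at 0.32 and 0.30. The lowest pair was Hnrnpa0 with Srsf5, at -0.40 and -0.20. By family, the median rho within the hnRNP genes was 0.09 and 0.10, within the Snrp genes 0.08 and 0.14, within the SF3 genes 0.11 and 0.11, and within the Srsf genes 0.14 and 0.04. Past a higher floor, a mean of at least 5 thinned counts, 24 splicing factor genes remained. There 1.81% of their pairs were above 0.3 in both libraries, against 1.12% of all pairs. In replicate 1 the shares were 7.61% against 5.74%, and in replicate 2 they were 8.70% against 8.70%. The medians at this floor were 0.08 and 0.10, against 0.02 and 0.02. The cells behind each rho share a library.

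**Figure D3:**
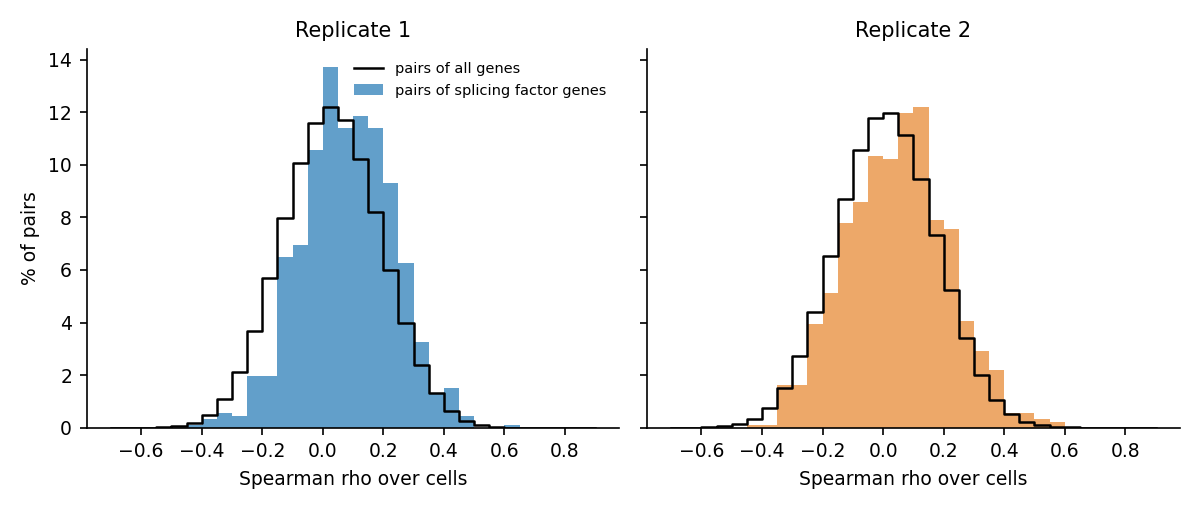
Distribution of Spearman rho over cells for pairs of splicing factor genes (bars) and for pairs of all genes past the same floor (black outline), as percent of pairs in bins of 0.05, in each library. The bars sit slightly to the right of the outline, with medians of 0.08 and 0.05 against 0.03 and 0.01.

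Sequence upstream of the 3 genes of the 2 highest pairs is shown because these were the splicing factor genes that moved together most, a choice made after the values were seen. RefSeq promoters of GRCm38.p6, 300 bases around a start, matched 48 of the 55 genes with 66 promoters. The stretches below run 5' to 3' on the gene's strand and stop before the first annotated transcript base. They cover Srsf3 at chr17:29032410-29032627 (+ strand), Hnrnpd at chr5:99978939-99979188 (- strand) and Hnrnpf at chr6:117900090-117900323 (+ strand), the most upstream of 4 RefSeq promoters of Hnrnpf. Capitals mark exact matches, on either strand, to an Ets motif (CCGGAAGT), the Nrf1 motif, a Yy1 motif (AAGATGGC), a Runx motif (TGTGGTT) and the CCAAT box.
Srsf3: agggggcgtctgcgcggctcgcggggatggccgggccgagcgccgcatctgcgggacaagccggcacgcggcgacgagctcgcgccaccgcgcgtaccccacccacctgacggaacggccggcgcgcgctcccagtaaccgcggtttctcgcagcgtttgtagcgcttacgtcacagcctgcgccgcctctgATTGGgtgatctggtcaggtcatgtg
Hnrnpd: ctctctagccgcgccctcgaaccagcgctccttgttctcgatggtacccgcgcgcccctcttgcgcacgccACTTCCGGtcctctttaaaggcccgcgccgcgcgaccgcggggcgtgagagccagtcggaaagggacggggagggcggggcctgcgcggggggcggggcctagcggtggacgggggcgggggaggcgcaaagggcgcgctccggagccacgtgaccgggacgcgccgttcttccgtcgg
Hnrnpf: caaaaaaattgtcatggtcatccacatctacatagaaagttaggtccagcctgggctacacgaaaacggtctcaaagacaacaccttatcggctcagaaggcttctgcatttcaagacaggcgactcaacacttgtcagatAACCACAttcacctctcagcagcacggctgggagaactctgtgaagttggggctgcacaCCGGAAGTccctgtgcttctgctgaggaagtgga

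In these stretches Srsf3 held a CCAAT box, Hnrnpd an Ets match, and Hnrnpf an Ets and a Runx match, so the 3 shared none of the marked motifs. Over the 66 promoters, the Ets letters were found in 11 (16.7%), which belong to 9 genes: Snrpe, Srsf11, Sf3a3, Srsf4, Hnrnpd, Hnrnpf, Sf3a1, Srsf5 and Sf3b2. The same letters were in 3.89% of all 32851 promoters and in 7.61% of the 12731 promoters of genes with a count in these cells. The Runx letters were in 1 promoter (1.52%), the most upstream of the 4 of Hnrnpf, against 3.70% for genes with a count. Other letters were scanned but not marked above. Sp letters (GGGCGG) were in 68.2% against 61.5% and the E-box (CACGTG) in 10.6% against 9.78%. The TATA box (TATAAA) was in 10.6% against 7.33%, and a shorter Runx motif (TGTGGT) in 9.09% against 12.5%. CCAAT was in 45.5% against 37.4%, the Nrf1 letters in 1.52% against 2.01% and the Yy1 letters in 3.03% against 4.24%. Median GC content was 61.0% and 60.7%. A match describes letters and does not show binding.

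The study asked whether yolk sac PK44 cells pass from endothelial to hematopoietic fate, and Runx1 encodes the transcription factor required for that transition. Cells of each library were therefore split at the median CPM of Runx1, which was 52.16 in replicate 1 and 10.03 in replicate 2. The Runx1-high class held 21 and 22 cells in replicates 1 and 2, and the Runx1-low class 22 cells in each. Some Runx1-high cells of replicate 2, down to 11.20 CPM, lay below the cut of replicate 1. The cell at 11.20 CPM had 89273 counts in all, so its Runx1 level is a single count. A deeper Runx1-low cell of replicate 2, with 225885 counts, stood at 8.85 CPM. Near this cut the class therefore also depends on depth. The classes are thus relative to each library and do not mark the same Runx1 level in both. The splicing factor genes took 1.56% of the counts of Runx1-high cells and 1.38% of those of Runx1-low cells in replicate 1, and 1.52% and 1.24% in replicate 2. In both libraries the share was thus higher in the Runx1-high class, while single cells of the classes overlapped. Summed Snrp genes stood at 3894 CPM in high and 2696 CPM in low cells of replicate 1, and at 4334 and 3484 CPM in replicate 2. Summed SF3 genes stood at 2179 and 1656 CPM, and at 2179 and 1633 CPM. Summed hnRNP genes went different ways, with 6318 and 6483 CPM in replicate 1 and 5397 and 4454 CPM in replicate 2.

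**Figure D4:**
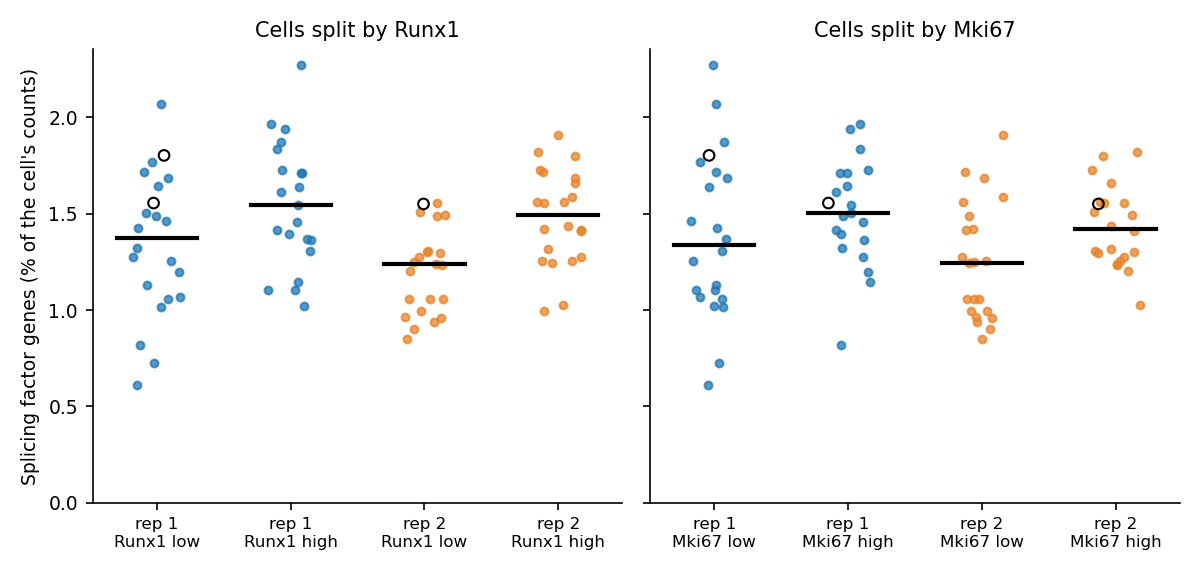
Share of each cell's counts, at full depth, taken by the 55 splicing factor genes, with cells split at the median of Runx1 (left) or Mki67 (right) in each library. Each dot is a cell, bars are medians, and open circles are the 3 cells with mesenchymal genes. The median is 1.54% in Runx1-high and 1.38% in Runx1-low cells of replicate 1, and 1.49% and 1.24% in replicate 2.

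Depth and other cells moved with this split. Median counts per cell were 260240 in Runx1-high and 95376 in Runx1-low cells of replicate 1, and 271734 and 213444 in replicate 2. All 3 cells with mesenchymal genes were in the Runx1-low classes, where the 7 mesenchymal markers summed to 2282 and 795.2 CPM, against 53.0 and 23.4 CPM in the high classes. The 8 endothelial markers summed to 1812 CPM in high and 3569 CPM in low cells of replicate 1, and to 3167 and 5247 CPM in replicate 2, and the 27 G2M phase genes to 5488 and 3747 CPM, and to 5978 and 5042 CPM. The 8 macrophage markers summed to 157.5 and 326.8 CPM, and to 215.2 and 212.6 CPM, and the 7 visceral endoderm markers to 68.8 and 38.8 CPM, and to 72.1 and 85.6 CPM. Their part in the differences was not tested. For correlations over cells the splicing factor genes were thinned to equal depth, while Runx1 was taken as CPM at full depth. Their thinned sum correlated with Runx1 at a Spearman rho of 0.35 over 42 cells and 0.50 over 44 cells. Without the cells with mesenchymal genes the values were 0.39 and 0.51. Thinned to 50000 counts they were 0.25 over 36 cells and 0.54 over 44 cells, and with CPM at full depth 0.32 and 0.56. By family, sums thinned to 20000 counts gave 0.005 and 0.43 for Srsf, 0.32 and 0.32 for hnRNP, and 0.17 and 0.44 for Snrp genes. They gave 0.42 and 0.24 for SF3 and 0.31 and 0.19 for U2af genes. With full depth the sum of all splicing factor genes thinned to 20000 counts correlated at 0.21 over 42 cells and 0.37 over 44 cells. Runx1 CPM itself correlated with depth at 0.34 and 0.35 over all cells of replicates 1 and 2, so depth was not equalized on both sides.

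Counts summed per library and class gave 4 sums, which were scaled by TMM and compared with edgeR's quasi-likelihood test over all 10629 genes that passed its filter, 51 splicing factor genes among them. None of the 51 was called at an adjusted p (Benjamini-Hochberg) below 0.05, where 0.00941% of all genes were called, a single gene, the mesenchymal marker Col1a1. None had an unadjusted p below 0.05, against 5.53% of all genes. With the library as a block none was called either (1.56% of all genes) and none had an unadjusted p below 0.05 (8.66% of all genes), nor with DESeq2 (1.29%), in which only Hnrnph3 had an unadjusted p below 0.05. The median log2 fold change of Runx1-high over Runx1-low cells was 0.23 over the 51 genes and -0.01 over all genes tested. The same median was 0.11 within replicate 1 and 0.26 within replicate 2, and 0.18 without the cells with mesenchymal genes.

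By direction, 23 of the 51 genes (45.1%) were higher in the Runx1-high class of both libraries, where 29.1% of all genes tested were, and 5 (9.80%) were lower in both, where 26% of all genes tested were, most of them less abundant than the splicing factor genes. The 23 were 8 of 10 Snrp genes, 6 of 9 SF3 genes, all 3 U2af genes, 4 of 9 Srsf genes and 2 of 20 hnRNP genes. Without the mesenchymal cells the count was 25, after thinning of cells 27, and 24 between the outer classes when each library was split into 3. The hnRNP count was the least settled, at 4, 8 and 9 in these 3 settings. The shares over all genes in these 3 settings are not given here, so the changes in count are not read as a result. For 12 genes both high sums lay above both low sums, where 20.1% of all genes tested did so, and for 1 gene, Hnrnph3, both lay below, where 17.7% did so.

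The 6 genes with the largest differences of one sign in both libraries were Hnrnph3, U2af1l4, Snrpa, Sf3b3, Snrpd3 and Sf3a1, and their levels are given as TMM-scaled CPM. U2af1l4 stood at 50.9 CPM in high and 17.3 CPM in low cells of replicate 1 and at 96.6 and 47.3 CPM in replicate 2. Its log2 fold change was 1.18 ± 0.79 (approximate SE, derived from the F statistic of the test). Both high sums of U2af1l4 were above both low sums. Snrpa, which encodes a U1 snRNP protein, stood at 100.3 and 54.1 CPM and at 257.7 and 160.0 CPM (0.73 ± 0.65), and its sums overlapped across libraries. Sf3b3 stood at 221.4 and 186.9 CPM and at 228.1 and 89.2 CPM (0.70 ± 0.49). Snrpd3, of the Sm ring, stood at 126.6 and 58.3 CPM and at 190.2 and 141.1 CPM (0.66 ± 0.57). Sf3a1 stood at 143.8 and 101.9 CPM and at 109.1 and 60.6 CPM (0.63 ± 0.54), without overlap, as for Sf3b3. Few cells carried much of these sums. The top 3 cells of replicates 1 and 2 held 62.5% and 38.0% of U2af1l4 counts and 58.4% and 28.7% of Snrpa counts. They held 30.4% and 32.9% for Sf3b3, 43.1% and 23.2% for Snrpd3, and 43.5% and 42.8% for Sf3a1. Over cells, rho with Runx1 was -0.01 and 0.34 for Snrpa, and 0.09 and 0.40 for Sf3b3. It was 0.16 and 0.32 for Snrpd3 and 0.16 and 0.13 for Sf3a1. The smallest adjusted p of edgeR's quasi-likelihood test over all 51 genes was 0.879, for Hnrnph3. Its 26 and 13 counts all fell in Runx1-low cells, and with 3 cells behind them no fold is given. Srsf3, the most abundant SR gene, stood at 746.9 and 515.8 CPM and at 565.8 and 406.2 CPM (0.50 ± 0.37), while Snrpg barely moved in replicate 1 (725.3 and 719.3 CPM, then 865.2 and 706.7 CPM).

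**Figure D5:**
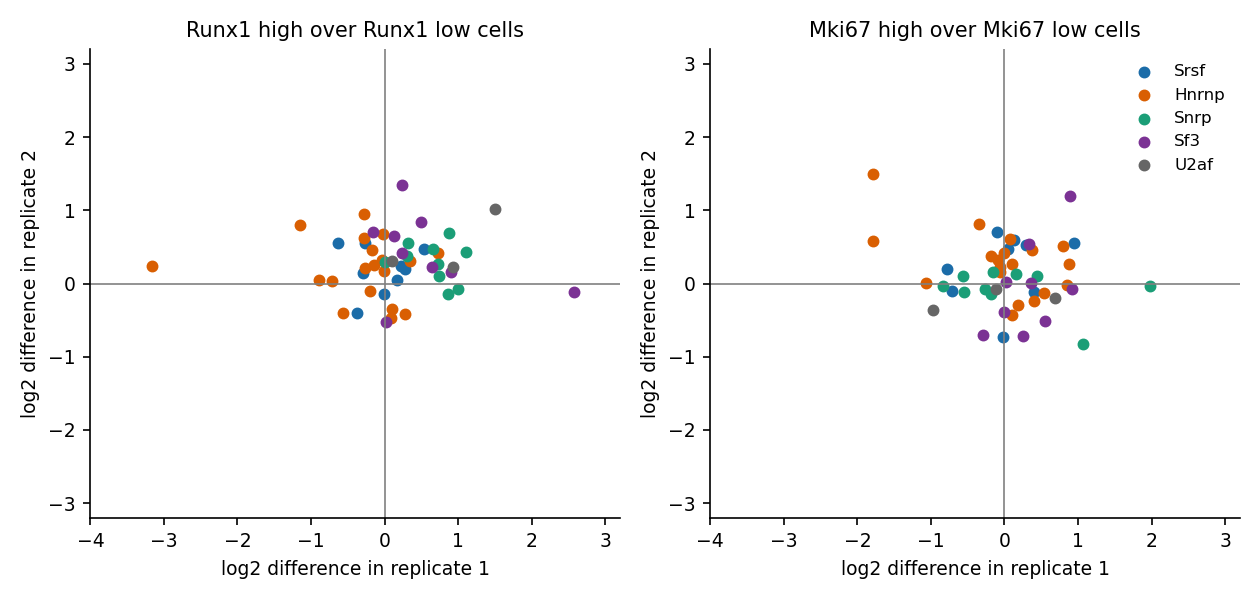
Log2 difference, with 1 CPM added to TMM-scaled CPM, between the high and the low class of cells in replicate 1 (horizontal) and replicate 2 (vertical), for cells split by Runx1 (left) and by Mki67 (right). Each point is one of 50 splicing factor genes coloured by family, Hnrnph3 being left out because of its few counts. On the left 23 genes lie in the upper right quadrant, among them 8 Snrp genes, and on the right 15 genes do.

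Mki67, which encodes the proliferation marker Ki-67, gave the second split. The splicing factor genes took 1.54% of the counts of Mki67-high and 1.44% of those of Mki67-low cells in replicate 1, and 1.46% and 1.33% in replicate 2. The 27 G2M phase genes summed to 6447 and 2686 CPM, and to 7378 and 2867 CPM, and the 27 S phase genes to 4883 and 4357 CPM, and to 4468 and 3375 CPM. Median depth was 245523 and 90600 counts, and 264754 and 207920 counts. The mesenchymal markers summed to 614.6 and 1163 CPM, and to 529.9 and 30.8 CPM, and the endothelial markers to 2291 and 2637 CPM, and to 3667 and 4520 CPM, and their part was not tested. Summed Srsf genes stood at 2904 and 2803 CPM and at 2915 and 2393 CPM, and summed hnRNP genes at 6571 and 6108 CPM and at 5289 and 4601 CPM. Summed Snrp genes stood at 3388 and 3580 CPM and at 4009 and 3966 CPM, so that the high class was below in replicate 1 and above in replicate 2. Over cells, the thinned sum of the splicing factor genes correlated with full-depth CPM of Mki67 at a rho of 0.19 and 0.38. With full-depth CPM of Top2a, another gene of dividing cells, the rho was 0.20 and 0.28. Mki67 CPM itself correlated with depth at 0.29 and 0.11.

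No splicing factor gene was called between Mki67 classes at an adjusted p below 0.05 with edgeR's quasi-likelihood test, where 0% of the 10650 genes tested were called. None had an unadjusted p below 0.05, where 2.41% of all genes tested did. With the library as a block none was called (0.0469% of all genes) and 3 had an unadjusted p below 0.05, namely Srsf1, Sf3a1 and Snrpg, where 4.35% of all genes tested did. DESeq2 called none (0.104% of all genes), and none had an unadjusted p below 0.05. Of the 51 genes, 15 were higher in the Mki67-high class of both libraries, where 25.5% of all genes tested were, and 11 were lower, where 24.3% were. The median log2 fold change was 0.05. Without the 3 cells with mesenchymal genes, 15 were higher and 10 lower in both libraries and the median was 0.11. For this setting the shares over all genes are not given here.

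Sf3a1 stood at 160.7 CPM in Mki67-high and 85.8 CPM in Mki67-low cells of replicate 1 and at 114.9 and 49.4 CPM in replicate 2. Its log2 fold change was 1.03 ± 0.52 (approximate SE). Srsf1, the gene of the prototype SR protein, stood at 381.3 and 197.2 CPM and at 213.0 and 145.1 CPM (0.80 ± 0.44). For both genes both high sums lay above both low sums, as for 6 of the 51 genes in all, where 15.5% of all genes tested did so, and for 6 others both lay below, where 14.7% did so. Hnrnph2 stood at 66.1 and 37.7 CPM and at 46.2 and 32.1 CPM (0.69 ± 0.69), and its paralog Hnrnph1 at 461.3 and 250.7 CPM and at 317.2 and 264.5 CPM (0.60 ± 0.37). The top 3 cells of replicates 1 and 2 held 52.0% and 26.8% of Hnrnph2 counts. They held 31.0% and 20.2% for Hnrnph1 and 27.4% and 27.4% for Srsf1. U2af1l4 went the other way, at 27.9 and 55.4 CPM and at 69.1 and 88.7 CPM (-0.57 ± 0.68), a direction that turned when cells were thinned or each library was split into 3 classes. Hnrnph3 had 0 and 26 counts and 1 and 12 counts in high and low cells. Snrpg, of the Sm ring, stood at 545.8 and 977.8 CPM and at 793.8 and 810.7 CPM, with a gap in replicate 1 and near equality in replicate 2.

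The Runx1 and Mki67 classes shared 13 of 21 high cells in replicate 1 and 12 of 22 in replicate 2. Within Mki67-high cells, the summed splicing factor genes were 0.23 and 0.14 log2 units higher in Runx1-high than in Runx1-low cells of replicates 1 and 2, and within Mki67-low cells 0.12 and 0.48. The summed ratio by Runx1 was positive in all 4 comparisons, but within Mki67-low cells of replicate 1 the median over single genes was -0.06, with 17 of 41 genes higher. Median depth was also higher in the Runx1-high cells in all 4. It was 284152 against 115758 and 369735 against 231792 counts within Mki67-high cells. Within Mki67-low cells it was 103849 against 82783 and 255121 against 202122 counts. The part of depth was not tested. The summed ratio by Mki67 stood at 0.07 and -0.04 within Runx1-high cells and -0.03 and 0.30 within Runx1-low cells. These strata held 8 to 14 cells each, and no test was made.

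Gene by gene over cells, 28 of 42 splicing factor genes (66.7%) correlated positively with Runx1 in both libraries, against 45.1% of 3276 genes. None did so above 0.3 in both, where only 2.72% of the 3276 genes did. Srsf3 was highest at 0.29 and 0.42, then Hnrnpc at 0.31 and 0.29 and U2af1 at 0.28 and 0.26, while Srsf10 alone was negative in both, at -0.02 and -0.08. For Mki67 the count was 25 (59.5% against 38.5%), led by Sf3b2 at 0.27 and 0.40. With full depth 31 genes were positive in both (73.8% against 52.3%). Outside the set, the genes most like the summed splicing factor genes over cells were Npm1 (0.58 and 0.58), Set (0.75 and 0.53), Nhp2 (0.51 and 0.60), Ran (0.51 and 0.64) and Fbl (0.46 and 0.54).

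The wider machinery was read from 134 other splicing genes in 3 lists: snRNP and tri-snRNP proteins (42), Prp19 complex and catalytic step proteins (41) and regulators (51). Between Runx1 classes 131 of them were tested and none was called by edgeR, with 4 (3.05%) at an unadjusted p below 0.05 and 10 (7.63%) with the library block, where 5.53% and 8.66% of all genes tested were. DESeq2 called 2, where it called 1.29% of all genes, so that the count is near that share. They were Ddx23 and Nova2, which are named here after their values were seen. Ddx23, a tri-snRNP helicase gene, stood at 55.4 and 0.326 CPM and at 14.5 and 1.35 CPM in high and low cells, and Nova2, which encodes a regulator known from endothelium and neurons, at 4.68 and 42.0 CPM and at 4.53 and 67.9 CPM. Of the 131 genes, 49 (37.4%) were higher in the Runx1-high class of both libraries and 30 (22.9%) were lower, against 29.1% and 26% of all genes tested. The 3 most abundant were Son, a speckle scaffold gene (1027 and 1222 CPM, then 1316 and 1565 CPM), Rbm39 (838.4 and 868.8 CPM, then 1003 and 1042 CPM) and the helicase gene Ddx5 (806.9 and 820.6 CPM, then 905.9 and 911.1 CPM). Between Mki67 classes none of 130 was called by edgeR or DESeq2, with 1 at an unadjusted p below 0.05, and 44 were higher and 26 lower in both libraries, against 25.5% and 24.3% of all genes tested.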

How the data were processed

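Yolk sac PK44 cells were sequenced as 2 libraries of 43 and 44 cells. The authors assigned reads to cells by barcode, trimmed them, mapped them to mm10 with HISAT2 (version 2.1.0 in the submitters' processing notes) and made UMI-collapsed gene counts of the unique alignments with HTSeq. The deposited counts are not normalized and were taken as these values, but how far duplicates were collapsed was not tested. Whether counting used strand is not given in the sources used here. Every deposited cell entered the analysis. The authors had removed low-quality cells, and doublets were not called here.

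Counts were summed per library and class of its cells, split at the median CPM of Runx1 or Mki67 (cells at the median counted as low), and tested with edgeR 4.0.16 in R 4.3.3 (filterByExpr, TMM, glmQLFit, glmQLFTest, Benjamini-Hochberg over all genes tested, threshold 0.05), without a block. Cells are not replicates. Correlations over cells used counts thinned to 20000 per cell (seed 20240501), which left out 1 cell of replicate 1. They used genes with a mean of at least 1 thinned count in both libraries. In correlations with Runx1, Mki67 or Top2a, these entered as CPM at full depth. Mesenchymal gene cells were those with at least 100 counts of each marking gene. Log2 differences within a library used a pseudocount of 1 CPM. An approximate SE is the absolute log2 fold change divided by the square root of the quasi-likelihood F, from the fit without a block. Alternatives were the library as a block, DESeq2 1.42.0, RLE size factors, no low-count filter, thinned cells, the outer classes of a 3-way split, cells without the mesenchymal ones, other thinning depths and each library left out. Both classes of a replicate number stem from 1 library, which pairs their sums, and the deviations correlated at 0.20 (Runx1) and 0.18 (Mki67) over genes. Tests were tried on simulated counts.

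All 55 symbols matched GENCODE M21 (GRCm38), and 48 matched RefSeq promoters. Named genes were the 3 most abundant of each family, genes detected in fewer than 10 cells, the 6 largest differences of one sign in both libraries per split, called genes, the 5 most and 5 least variable, the 5 most similar non-members, and called or the 3 most abundant other splicing genes. Others are named as examples after their values were seen. The members and lists were chosen with earlier results of these data known. Intervals of shares of cells are exact (Clopper-Pearson, 95%) and cover counting error only. Python 3.11.15, pandas 2.3.3, numpy 2.4.6, scipy 1.17.1 and matplotlib 3.10.9 were used.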

Additional observations from a re-analysis of the deposited data

How the results depend on the processing

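No splicing factor gene was called under any of the settings run with a test, for Runx1 or for Mki67. The replicate block on the library changed no call of a splicing factor gene, while over all genes it raised the Runx1 calls from 1 to 166 and the Mki67 calls from 0 to 5. The median log2 fold change by Runx1 stayed positive, from 0.11 without replicate 2 to 0.26 without replicate 1. The median by Mki67 was small and less stable: it was 0.05 as reported, 0.10 with the replicate block, 0.15 with cells thinned before summing, 0.16 with thinning and the block, 0.11 without the mesenchymal gene cells, 0.12 without them and with the block, and from 0.015 without replicate 1 to 0.049 without replicate 2. U2af1l4 turned from -0.57 to 0.30 between Mki67 classes with thinned cells, to 0.19 with thinned cells and the block, and to 0.98 between the outer classes of a 3-way split, and the cause was not tested. The added settings combining thinning or the left-out cells with the block, and those for counts of one direction, were chosen after seeing the data. The counts higher in both libraries ran from 22 to 27 for Runx1 and from 15 to 20 for Mki67, with the shares over all genes in each setting not given here. A library left out leaves 1 sum per class and no test. For Srsf4, Hnrnph3 and Hnrnpul1 the few cells with a count limit the precision.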
